A study of Mus musculus with 12 samples.

Results

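AP-1, a transcription factor built as a dimer of Fos and Jun proteins, was followed through its 7 genes (Fos, Fosb, Fosl1 and Fosl2 of the Fos family and Jun, Junb and Jund of the Jun family) in KPC cells, a mouse pancreatic ductal adenocarcinoma (PDAC) line, under cisplatin (Cis), a platinum drug that crosslinks DNA. The members were taken by gene symbol, with earlier results of these data known. All 7 were found, each as 1 representative transcript, among 15803 transcripts with a read in at least 1 library. The line came from tumours of mice carrying Trp53 LSL-R172H, switched on in pancreatic cells by a Cre under the Pdx1 promoter, and its genotype is shared by every group. Cells received 20 μM Cis for 6 h or for 21 h. The control cells are labelled as untreated and, by the methods, received PBS, for a time that is not labelled. Without a control known to match each time, longer exposure to Cis and longer time in culture cannot be told apart. Ribosome profiling, which counts the RNA fragments that ribosomes protect (footprints), and RNA-seq of the lysates were each done on 2 libraries per group, 12 in all, and the same PBS libraries were the control at both times. KPC is a single cultured line, and the labels do not say whether the 2 libraries of a group came from separate cultures, so the p-values measure the spread between these libraries, which may be technical.

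Fos and Jun proteins carry a basic region that touches DNA and a leucine zipper that holds the dimer together. Jun proteins can pair with each other, while Fos proteins need a Jun or another zipper partner, so the mixture of members in a cell sets which dimers can form. Several of the genes, Fos and Jun among them, are textbook immediate early genes. MAP kinases act on factors already bound to the promoters of such genes after growth signals or stress, and their transcripts are short-lived. The dimers switch on genes of growth, matrix breakdown and inflammation.

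All levels are RPKM, in which reads are divided by the length they fell on and by the depth of the library. The length is that of the coding sequence for footprints and of the full transcript for RNA. Footprint libraries held 3375480 to 5204127 reads and RNA-seq libraries 1985344 to 2901692, of which 51.8% to 56.6% lay on Lars2, Tmem38b and Mettl26. Differences were tested with limma on log2(RPKM + 0.5) after scaling within each assay, two-sided, with Benjamini-Hochberg (BH) adjustment over all transcripts tested, and a transcript was called at an adjusted p under 0.05. The keratin Krt8 and the intermediate filament gene Vim were the most abundant epithelial and mesenchymal markers, at a mean of 4300 and 3446 footprint RPKM. Other markers of each list ranged widely. Among epithelial ones, Krt19 and Krt18 were at 2377 and 1700, Cdh1 at 117, Krt7 at 16.4 and Epcam at 1.05. Among mesenchymal ones, Fn1 was at 43.4, Cdh2 at 20.2, Acta2 at 9.66, Zeb1 at 5.55 and Pdgfrb at 0.11. The cells thus carried some markers of both kinds, and the sums below rest on few genes. Of 6 leukocyte markers, 4 had footprints in any library, led by Cd68, and their summed footprint RPKM was 1.87 to 2.35 with PBS, 1.73 to 2.02 at 6 h and 3.57 to 9.68 at 21 h, while Itgam and Cd3e were at 0 in footprints and Ptprc, Adgre1 and Lyz2 at 0 in RNA. The 6 epithelial markers, all with reads, summed to 9101 to 9781 footprint RPKM with PBS, 9298 to 9356 at 6 h and 6697 to 6838 at 21 h, and the mesenchymal markers to 3705 to 3711, 3879 to 3934 and 2925 to 2996. In RNA the epithelial sum was 1468 to 1523, 1409 to 1469 and 1316 to 1362 RPKM, and the mesenchymal sum 656.7 to 713, 591.3 to 671 and 518.4 to 518.5. Both sums were thus lowest at 21 h in both assays, and the part of these differences in the results at 21 h was not tested. In bulk lysates, a change in the number of cells with a transcript and a change in the amount per cell cannot be told apart.

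The stretches of DNA just before the start of the members that changed most are shown first, since motifs of factors known to act on these genes were searched for there. Promoter sequences from RefSeq (GRCm38.p6) were matched for 6 of the 7 members. The 250 bases before the annotated start of 4 of them are printed 5′ to 3′ on the strand of the gene, with matches to the searched motifs in capitals.

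Fos, chr12:85473640-85473889, + strand: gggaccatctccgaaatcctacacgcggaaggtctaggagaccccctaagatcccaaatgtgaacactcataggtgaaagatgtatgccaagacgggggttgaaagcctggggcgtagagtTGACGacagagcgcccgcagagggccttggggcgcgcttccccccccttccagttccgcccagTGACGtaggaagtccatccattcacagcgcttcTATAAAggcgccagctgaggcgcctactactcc
Fosb, chr7:19310046-19310295, - strand: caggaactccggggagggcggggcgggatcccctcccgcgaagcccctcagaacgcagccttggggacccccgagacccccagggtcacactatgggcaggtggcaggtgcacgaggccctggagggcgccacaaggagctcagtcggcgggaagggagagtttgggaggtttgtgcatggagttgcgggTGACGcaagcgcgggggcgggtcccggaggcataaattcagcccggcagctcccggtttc
Jun, chr4:95052223-95052472, - strand: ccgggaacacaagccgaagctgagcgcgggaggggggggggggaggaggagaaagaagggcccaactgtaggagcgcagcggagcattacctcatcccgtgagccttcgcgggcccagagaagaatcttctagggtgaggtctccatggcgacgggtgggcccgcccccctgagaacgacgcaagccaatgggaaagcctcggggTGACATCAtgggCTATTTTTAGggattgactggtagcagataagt
Junb, chr8:84978749-84978998, - strand: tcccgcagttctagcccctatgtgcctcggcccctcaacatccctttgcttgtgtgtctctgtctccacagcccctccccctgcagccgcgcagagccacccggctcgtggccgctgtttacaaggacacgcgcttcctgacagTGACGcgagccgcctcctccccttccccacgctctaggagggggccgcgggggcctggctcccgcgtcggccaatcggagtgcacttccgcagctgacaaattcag

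The motifs searched on both strands were TGANTCA, the AP-1 element, TGACNTCA, its one base longer form, TGACG, the core of the cAMP response element, the MEF2 core, which is CTA and TAG with 4 bases of any kind between, TATAAA, the TATA box, and the CArG box, bound by SRF. TGACG overlaps TGACNTCA where the variable base is G. Over 32851 promoters of the table, 17.8% of the windows held TGACG, 12.4% TATAAA, 7.49% TGACNTCA, 6.75% TGANTCA, 3.20% the MEF2 core and 1.47% the CArG box. The Fos window held TGACG 129 and 66 bases before the start and TATAAA 33 bases before it. Jun held the 8 base form TGACATCA 45 bases and the MEF2 core 33 bases before its start. Fosb and Junb each held a single TGACG, 60 and 106 bases before the start, and the windows of Fosl2 and Jund had no match to any of these letters. None of the 4 printed stretches held the CArG box, which says only that it is not in these 250 bases. Fosl1 is not in the promoter table.

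Fos, the founding member of its family, had the largest footprint change at both times. It held 5.39 and 9.60 footprint RPKM with PBS, 20.4 and 17.4 at 6 h and 75.9 and 71.6 at 21 h. Its RNA was 1.73 and 1.14 RPKM with PBS, 4.30 and 3.08 at 6 h and 24.8 and 21.3 at 21 h. In both assays the libraries of the 3 groups stood in the order PBS, 6 h, 21 h with no overlap between any groups. The PBS level rested on few reads, 32 and 51 footprints and 9 and 7 RNA reads. Footprints rose by 1.31 on the log2 scale at 6 h (SE 0.24; limma, BH-adjusted p = 0.0377) and by 3.23 at 21 h (SE 0.24; limma, BH-adjusted p = 4.3e-05), or 9.56-fold between the scaled means. RNA gave 1.17 at 6 h (SE 0.25; limma, BH-adjusted p = 0.208), which did not pass, and rose by 3.54 at 21 h (SE 0.25; limma, BH-adjusted p = 5.2e-05), a 15.1-fold difference between scaled means.

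Fosb, whose protein resembles Fos and is known for a long-lived short form, was the least abundant member. Its footprint level was 1.14 and 1.90 RPKM with PBS, 1.89 and 1.17 at 6 h and 11.2 and 7.06 at 21 h, so the PBS and 6 h libraries overlapped and both 21 h libraries stood above them. RNA had 0 reads in both PBS libraries, 6 and 1 reads at 6 h and 48 and 53 reads at 21 h, the last worth 5.45 and 6.70 RPKM. Footprints rose at 21 h by 2.22 (SE 0.34; limma, BH-adjusted p = 0.0014) and gave -0.0018 at 6 h (SE 0.34; limma, BH-adjusted p = 0.999). The RNA at 21 h was at least 19.2-fold higher than with PBS, taking 3 reads per PBS library as the floor for counting error. Fosb passed the minimum level for RNA only through its 21 h libraries, so its call there (limma, BH-adjusted p = 0.00051) follows from that filter and supports nothing.

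**Figure D1:**
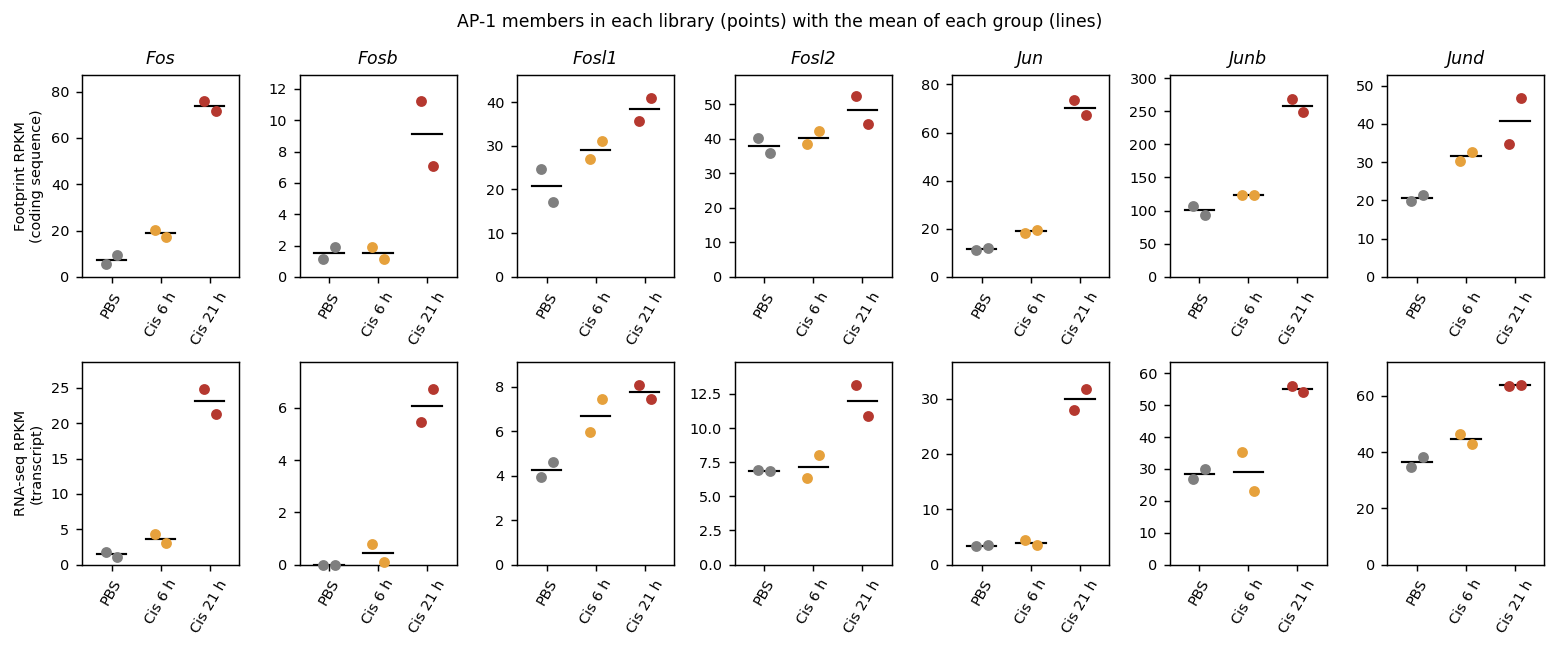
RPKM of each member (columns) in each library, for footprints over the coding sequence (upper row) and RNA-seq over the transcript (lower row). Points are libraries (grey PBS, orange 6 h, red 21 h), lines are means of 2 libraries, and each panel has its own axis from 0. Both 21 h libraries of each member stand above its PBS libraries in both rows, farthest for Fos, Jun and Fosb.

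Fosl1 and Fosl2, which lack the strong activation domain of Fos, moved less. Fosl1 had 24.6 and 17.0 footprint RPKM with PBS, 27.1 and 31.1 at 6 h and 35.8 and 40.9 at 21 h. Its RNA was 3.92 and 4.62, then 5.94 and 7.44, then 8.06 and 7.44 RPKM. In these RPKM as deposited no groups overlapped, but in RNA the higher 6 h library all but met the lower 21 h library. After the scaling used in the tests, the 6 h and 21 h RNA libraries did overlap, with a change of 0.06 between the times (limma, BH-adjusted p = 0.871). Footprints of Fosl1 rose by 0.85 at 21 h (SE 0.18; limma, BH-adjusted p = 0.0058) and its RNA by 0.71 (SE 0.21; limma, BH-adjusted p = 0.0335). Fosl2 held 40.3 and 35.8 footprint RPKM with PBS, 38.4 and 42.1 at 6 h and 52.4 and 44.2 at 21 h. Its RNA was 6.90 and 6.85, then 6.32 and 8.02, then 13.1 and 10.9 RPKM. In both assays the 6 h libraries of Fosl2 overlapped those with PBS and the 21 h libraries stood above both. The footprint change at 21 h, 0.30, did not pass (95% interval 0.02 to 0.59; limma, BH-adjusted p = 0.0877), whereas the RNA rose by 0.68 (SE 0.20; limma, BH-adjusted p = 0.0337). Over 14 alternatives the footprint change ran from 0.19, without the first 21 h library, to 0.43, without the second, and only the last passed.

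Jun, the member that JNK phosphorylates and that activates its own gene, followed Fos in size. Its footprint level was 11.3 and 12.2 RPKM with PBS, 18.3 and 19.5 at 6 h and 73.4 and 67.1 at 21 h. RNA held 3.31 and 3.46 RPKM with PBS, 4.42 and 3.53 at 6 h and 28.0 and 31.8 at 21 h. The replicates lay close together, and no groups overlapped, although in RNA the lower 6 h library was only just above the PBS libraries. Footprints rose by 0.65 at 6 h (SE 0.13; limma, BH-adjusted p = 0.0428) and by 2.49 at 21 h (SE 0.13; limma, BH-adjusted p = 8.0e-06), or 5.82-fold. RNA gave 0.26 at 6 h (limma, BH-adjusted p = 0.633) and rose by 2.88 at 21 h (SE 0.19; limma, BH-adjusted p = 3.8e-05), or 8.32-fold.

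Junb, a weaker activator that can dampen Jun, was the most translated member in every library. It held 107 and 94.0 footprint RPKM with PBS, 124 and 124 at 6 h and 269 and 248 at 21 h. RNA was 26.7 and 30.1 RPKM with PBS, 35.4 and 23.0 at 6 h and 56.0 and 54.2 at 21 h. The 21 h libraries stood above all others in both assays, and the 6 h RNA libraries lay on either side of those with PBS. Footprints rose by 1.32 at 21 h (SE 0.09; limma, BH-adjusted p = 3.2e-05) and RNA by 0.86 (SE 0.18; limma, BH-adjusted p = 0.0085).

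Jund, the member known for steady expression in resting cells, had the most RNA in every library. Its RNA was 34.8 and 38.5 RPKM with PBS, 46.5 and 42.9 at 6 h and 63.6 and 64.0 at 21 h. Its footprints were at 19.9 and 21.4 RPKM, then 30.2 and 32.7, then 34.7 and 46.7. The groups were ordered PBS, 6 h, 21 h without overlap in both assays. Footprints gave 0.58 at 6 h (95% interval 0.22 to 0.94; limma, BH-adjusted p = 0.0951), which did not pass here but did with only the groups compared and with voom, and rose by 0.91 at 21 h (SE 0.16; limma, BH-adjusted p = 0.0025). RNA rose by 0.71 at 21 h (SE 0.11; limma, BH-adjusted p = 0.0018).

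At 6 h, then, footprints of 2 of the 7 members, Fos and Jun, were called higher and none lower, where 1.05% of the 10390 transcripts tested were called higher. Both calls were lost without the first PBS library or without either 6 h library, with limma, BH-adjusted p of 0.0908 to 0.242, and that of Jun also without the second PBS library (limma, BH-adjusted p = 0.123). In RNA, limma called 0 of 7 members and 0% of 9459 transcripts at 6 h, although 1086 transcripts had an unadjusted p under 0.05, among them Fos, Fosl1 and Jund. Those 3 members gave 1.17, 0.65 and 0.35 on the log2 scale. Voom on the recovered reads, a second form of limma, called 228 transcripts in RNA at 6 h in either direction, with no member among them.

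At 21 h, 6 of 7 members were called higher in footprints, against 18.9% of transcripts, and the median change of the 7 was 1.32 against 0.01 over all transcripts. In RNA all 7 were called higher, Fosb through its filter as described, against 11.6% of 9459 transcripts, with a median of 0.86 against 0.02. The RNA calls of Fosl1 and Fosl2 were not firm. That of Fosl1 was lost without any one of the 4 libraries compared (limma, BH-adjusted p = 0.0756 to 0.166), that of Fosl2 without either PBS library or the first 21 h library (limma, BH-adjusted p = 0.122 to 0.180), and that of Junb without the first PBS library (limma, BH-adjusted p = 0.0635).

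**Figure D2:**
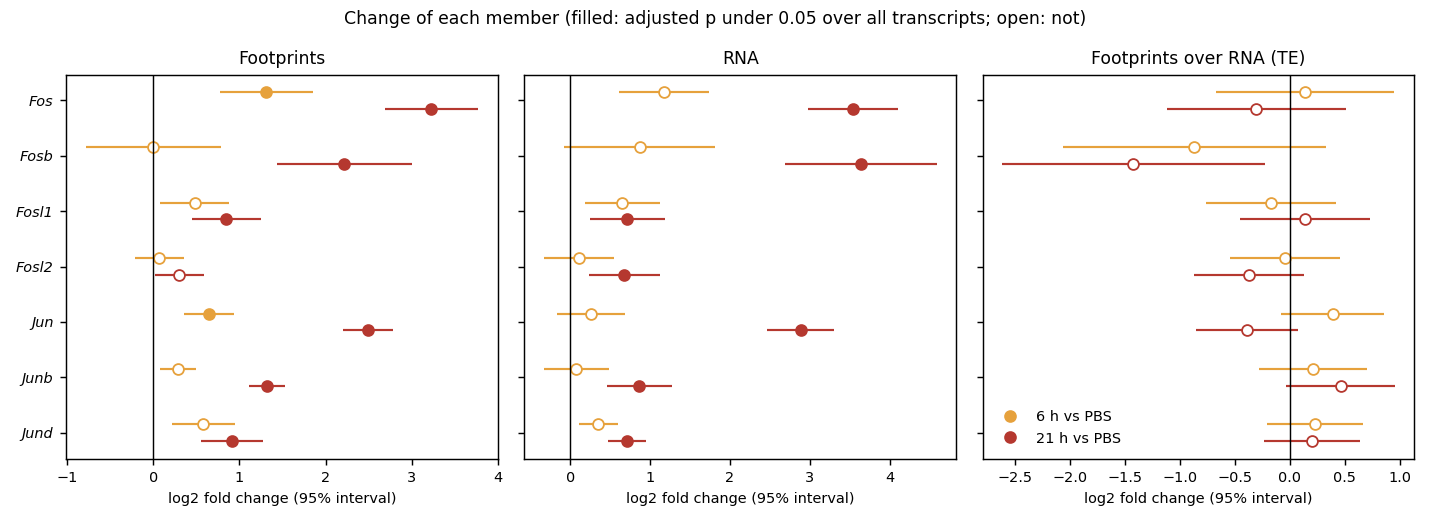
Log2 fold change of each member against PBS with its 95% interval, at 6 h (orange) and 21 h (red), for footprints, RNA and their ratio (TE). Filled points passed an adjusted p of 0.05 over all transcripts. Fos and Jun lie farthest to the right in footprints at 21 h, at 3.23 and 2.49, and no point in the TE panel is filled.

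Between 6 h and 21 h, footprints of Fosb rose by 2.22, Fos by 1.92, Jun by 1.84 and Junb by 1.04 (limma, BH-adjusted p = 0.0024, 0.00093, 6.4e-05 and 0.00020), 4 of 7 members against 15.0% of transcripts. In RNA 5 of 7 passed, against 7.53% of transcripts. Jun rose by 2.62, Fos by 2.36, Junb by 0.79 and Jund by 0.36 (limma, BH-adjusted p = 0.00010, 0.00060, 0.0187 and 0.0490). The fifth was Fosb, at 2.77 (limma, BH-adjusted p = 0.0033), which entered the RNA test only through its 21 h libraries, so that its call follows from the filter and supports nothing. Fosl1 and Fosl2 did not pass in either assay, at 0.37 and 0.24 in footprints (limma, BH-adjusted p = 0.145 and 0.188) and 0.06 and 0.57 in RNA (limma, BH-adjusted p = 0.871 and 0.0821). The RNA call of Jund was lost without any one of its 4 libraries, and that of Junb without the second 6 h library or either 21 h library. The calls over all RNA transcripts, 712 higher and 776 lower, became 1234 higher and 514 lower with RPKM as deposited, which moved the median of all transcripts by 0.14 on the log2 scale, and the 5 members were still called, with Fosl2 added at 0.71 (limma, BH-adjusted p = 0.0317).

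RPKM is per length, so levels can be compared between genes, and their order differed between the groups. In footprints with PBS the order was Junb (mean 101 RPKM), Fosl2 (38.0), Fosl1 (20.8), Jund (20.7), Jun (11.8), Fos (7.50) and Fosb (1.52), with Fosl1 and Jund overlapping. At 21 h it was Junb (259), Fos (73.7), Jun (70.3), Fosl2 (48.3), Jund (40.7), Fosl1 (38.3) and Fosb (9.15), so that Fos went from the sixth place to the second. Fos and Jun overlapped there, as did Fosl2 with Jund and Jund with Fosl1. In RNA, Jund (36.6 RPKM) and Junb (28.4) stood first with PBS and again at 21 h (63.8 and 55.1), and Jun (29.9) and Fos (23.1) came next at 21 h, from 3.38 and 1.44 with PBS.

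Summed over the 7 members, footprints came to 200.9 ± 12.8 RPKM with PBS, 264 ± 5.26 at 6 h and 539 ± 18.7 at 21 h (SD, n = 2 each). RNA came to 81.0 ± 5.10, 95.9 ± 11.1 and 198 ± 1.92 RPKM (SD, n = 2 each). No groups overlapped in either sum. An exact permutation test of 2 libraries against 2 can give no two-sided p below 0.333, and the sums were not tested. The Fos family made up 33.8% of the footprint sum with PBS, 34.0% at 6 h and 31.4% at 21 h, and 15.6%, 19.0% and 24.7% of the RNA sum. The RNA share depended on the unit: counted in reads in place of RPKM, it was 31.3%, 33.2% ± 5.49 and 35.3% (means of 2 libraries, SD for the 6 h group, whose spread was the widest). Within the Fos family the mixture turned over: Fos itself was 2.57% and 5.0% of the footprint sum in the PBS libraries and 13.7% and 13.6% at 21 h, while Fosl2 was 19.2% and 18.6% and then 9.49% and 8.41%. Jun went from 5.39% and 6.36% to 13.3% and 12.8%, and Junb stayed between 46.2% and 51.1% in every library.

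**Figure D3:**
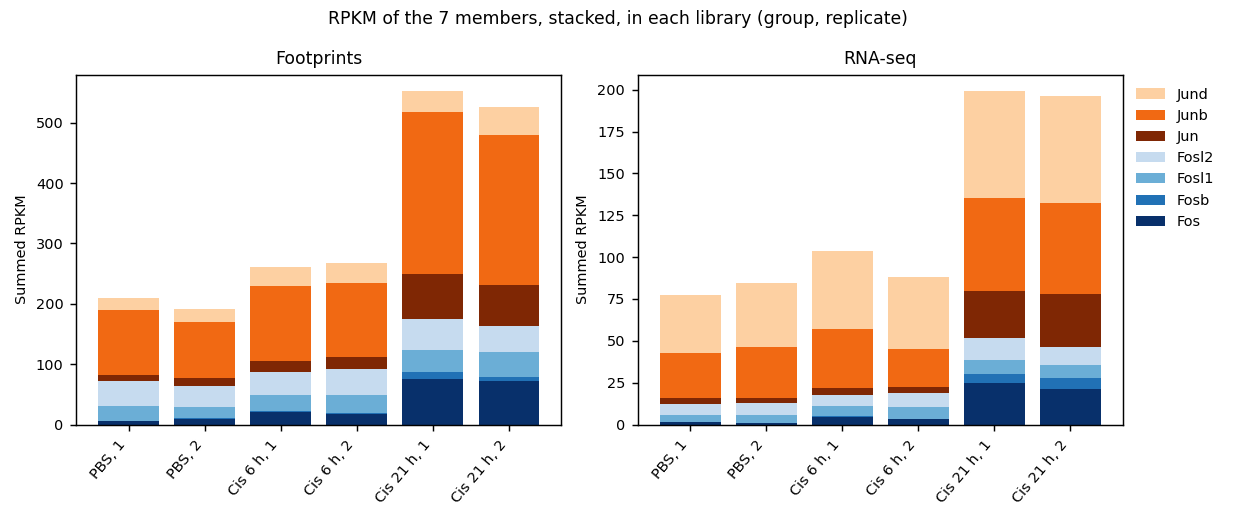
RPKM of the 7 members stacked in each library, named by group and replicate, for footprints (left) and RNA-seq (right), with Fos members in blue and Jun members in orange and brown. The footprint sum is 210 and 192 with PBS and 552 and 526 at 21 h, and Junb is the widest footprint segment in every library.

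The ratio of footprint to RNA level (TE) compares how many ribosomes a transcript carries for its amount, and its change was the assay-by-treatment term of a limma fit over all 12 libraries. None of the 7 members was called at any time, against 0% of 9312 transcripts at 6 h, 0.408% at 21 h and 1.01% between 6 h and 21 h (limma). At an unadjusted p under 0.05 there were 712, 1183 and 1263 transcripts, and among members Fosb at 21 h and Jun between 6 h and 21 h. For Fos the change at 21 h was -0.31 with a 95% interval of -1.12 to 0.51, an interval that spans both a fall and a rise. Jun gave 0.39 at 6 h (95% interval -0.08 to 0.86), -0.39 at 21 h (-0.86 to 0.08) and -0.78 between the times (-1.25 to -0.31; limma, BH-adjusted p = 0.124). Junb gave 0.46 at 21 h (95% interval -0.03 to 0.95; limma, BH-adjusted p = 0.437). Fosb gave -1.42 (limma, BH-adjusted p = 0.318), a value that depends on the pseudocount because its RNA was at 0 with PBS, and with voom on recovered reads it was -4.34 and called (limma voom, BH-adjusted p = 0.00090). Since Fosb passed the RNA minimum only through its 21 h libraries, neither value supports a change in TE.

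With PBS, Jund stood apart from the other members in this ratio. Its footprint RPKM divided by its RNA RPKM was 0.571 and 0.556 with PBS, 0.649 and 0.763 at 6 h and 0.546 and 0.730 at 21 h, taking libraries of the same number together. From scaled means it was 0.569 with PBS, where the median of 9309 transcripts was 3.47 and 1.5% of them were lower. Fosl2 was at 5.57, Fos at 5.26, Fosl1 at 4.91, Junb at 3.57 and Jun at 3.51, each above that median. The most abundant transcript of the family thus stood in footprints with PBS beside Fosl1, whose RNA was 4.27 RPKM.

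**Figure D4:**
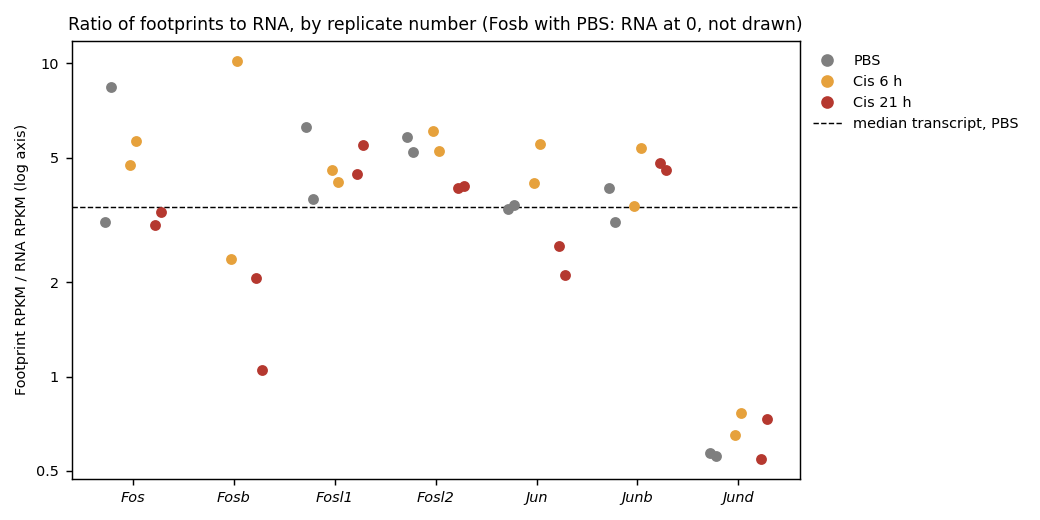
Footprint RPKM divided by RNA RPKM for each member, on a log axis, with 1 point per replicate number (grey PBS, orange 6 h, red 21 h) and the median of all transcripts with PBS as a dashed line at 3.47. Jund lies between 0.546 and 0.763 in every group, and Fosb with PBS has no value because its RNA was 0.

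The members other than Fosl2 are short genes. Spans of the 7, taken as lengths from RefSeq, ran from 1.84 kb for Junb to 21.4 kb for Fosl2, and 6 of them were under 10 kb. Of the transcripts with a span tested in RNA at 21 h, 48.4% were shorter than Fosl2 and 20.8% shorter than Fosl1, the next longest. Genes up to 21.4 kb made up 4968 of 10390 transcripts tested in footprints and 4548 of 9459 in RNA, so this set is not of short genes alone. Its median footprint change at 21 h was 0.21, with 28.8% called higher, and its median RNA change 0.16, with 17.0% called higher. The part of gene length in the members' change was not tested.

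The transcripts most like Fos over the 4 log2 fold changes against PBS, by Euclidean distance among 9312 transcripts, were Dusp1 (distance 0.30), Atf3 (0.88) and Ptgs2 (1.15). Dusp1, a phosphatase that switches off MAP kinases, gave 1.05 and 3.33 in footprints and 1.12 and 3.63 in RNA at 6 h and 21 h. For Jun they were Btg2 (0.65), Txnip (0.65) and Gadd45a (0.66). Btg2, an antiproliferative gene, gave 0.96 and 3.00 in footprints and 0.41 and 2.69 in RNA. Among the members themselves, Fosl1 and Jund were nearest to each other, at 0.32, but 52 transcripts lay closer to Fosl1 and 79 closer to Jund.

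Other leucine zipper proteins can pair with Fos or Jun. At 21 h, 18.9% of all transcripts were called higher in footprints and 20.2% lower, and in RNA 11.6% higher and 12.2% lower. At 6 h the footprint shares were 1.05% higher and 0.991% lower. The counts of the lists that follow are to be read against these shares. No footprint call at 6 h, over all transcripts, was kept in a refit with no variance trend, so those of listed genes were not firm. Of 12 leucine zipper partners, 8 were tested in footprints at 21 h, where 4 were called higher and 1 lower, with a median of 0.30. Atf3, a stress-induced partner of Jun, went from 19.4 ± 0.07 to 256 ± 18.8 footprint RPKM (SD, n = 2 each) and rose by 3.65 (limma, BH-adjusted p = 1.1e-06), with its RNA rising by 3.46 (limma, BH-adjusted p = 2.9e-05). It was also the single partner called at 6 h, by 0.98 in footprints (limma, BH-adjusted p = 0.0080). The small Maf proteins, which have no activation domain, were also higher: Maff rose by 1.06, Mafg by 0.87 and Mafk by 0.83 in footprints (limma, BH-adjusted p = 0.0020, 0.0039 and 0.0010). Atf2, which pairs with Jun on the longer element, gave -0.41 and Jdp2, a repressor of AP-1, gave -0.31 (limma, BH-adjusted p = 0.209 and 0.285). In RNA 3 of 8 partners rose and 0 fell.

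Of 27 genes of the MAP kinase cascade that leads to AP-1, 24 were tested in footprints at 21 h, where 4 were called higher and 5 lower, with a median of 0.01, close to the shares over all transcripts, so that the counts are no result about the cascade. The 3 Gadd45 genes, small stress-induced proteins that bind the MAP kinase kinase kinase Map3k4, accounted for 3 of the 4 that rose: Gadd45a by 2.67, Gadd45g by 2.00 and Gadd45b by 1.83 (limma, BH-adjusted p = 8.3e-06, 0.00021 and 8.0e-06). Gadd45b was also called at 6 h, going from 49.2 ± 0.65 to 104 ± 8.04 footprint RPKM (SD, n = 2 each; limma, BH-adjusted p = 0.0042). Map3k5, the kinase ASK1 upstream of JNK and p38, fell by 1.83 at 21 h (limma, BH-adjusted p = 0.00041), from 8.32 ± 0.05 to 2.05 ± 0.35 footprint RPKM (SD, n = 2 each). RNA gave 4 higher and 4 lower of 24.

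Of 12 factors known to act at the Fos and Jun promoters, all were tested in footprints at 21 h, with 1 called higher, 5 lower and a median of -0.24, against 18.9% and 20.2% over all transcripts. Mef2c, of the family that binds the Jun element, fell by 1.44 (limma, BH-adjusted p = 0.0399) from a level of only 2.40 RPKM, Mrtfa, a partner of SRF, fell by 1.05 (limma, BH-adjusted p = 0.0147) and Elk3, an SRF partner of the Ets family, fell by 0.89 (limma, BH-adjusted p = 0.0093). Crem, of the family that binds the cAMP response element, rose by 0.87 (limma, BH-adjusted p = 0.0058). In RNA 2 of the 11 tested fell and 0 rose.

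Of 12 genes that control the decay of AP-1 messages and proteins and were tested in footprints at 21 h, 3 rose and 3 fell, with a median of -0.30. These counts too are close to the shares over all transcripts and are no result about the list. Zfp36 and Zfp36l1, which destabilize messages with AU-rich elements, rose by 2.19 and 1.54 (limma, BH-adjusted p = 5.8e-05 and 0.00028). Hnrnpd, which binds the same elements, fell by 0.76 and Btrc, a substrate receptor of an SCF ubiquitin ligase, fell by 1.70 (limma, BH-adjusted p = 0.00027 and 0.00032). Hnrnpd was the only gene of this list called at 6 h, at -0.55 (limma, BH-adjusted p = 0.0284), where 0.991% of transcripts were called lower. In RNA at 21 h, 2 rose and 2 fell.

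Most immediate early genes outside AP-1 were higher at 21 h. Of 17 tested in footprints at 21 h, 13 were called higher and 0 lower, with a median of 1.46, against 18.9% and 20.2% of all transcripts, and of 15 tested in RNA, 12 were called higher and 0 lower, against 11.6% and 12.2%. Dusp1 went from 42.3 ± 4.72 to 440.1 ± 12.3 footprint RPKM and Egr1, a zinc finger factor, from 12.0 ± 4.34 to 82.6 ± 4.37 (SD, n = 2 each). Their rises were 3.33 and 2.75, and that of Btg2 was 3.00 (limma, BH-adjusted p = 1.1e-06, 7.0e-05 and 3.1e-05). Arc, an immediate early gene of neurons, rose from 0.61 ± 0.41 to 5.63 ± 0.22 footprint RPKM (SD, n = 2 each; limma, BH-adjusted p = 0.0015). At 6 h, 3 of 17 were called higher in footprints, against 1.05% of all transcripts, among them Dusp1 by 1.05 on the log2 scale (limma, BH-adjusted p = 0.0063).

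**Figure D5:**
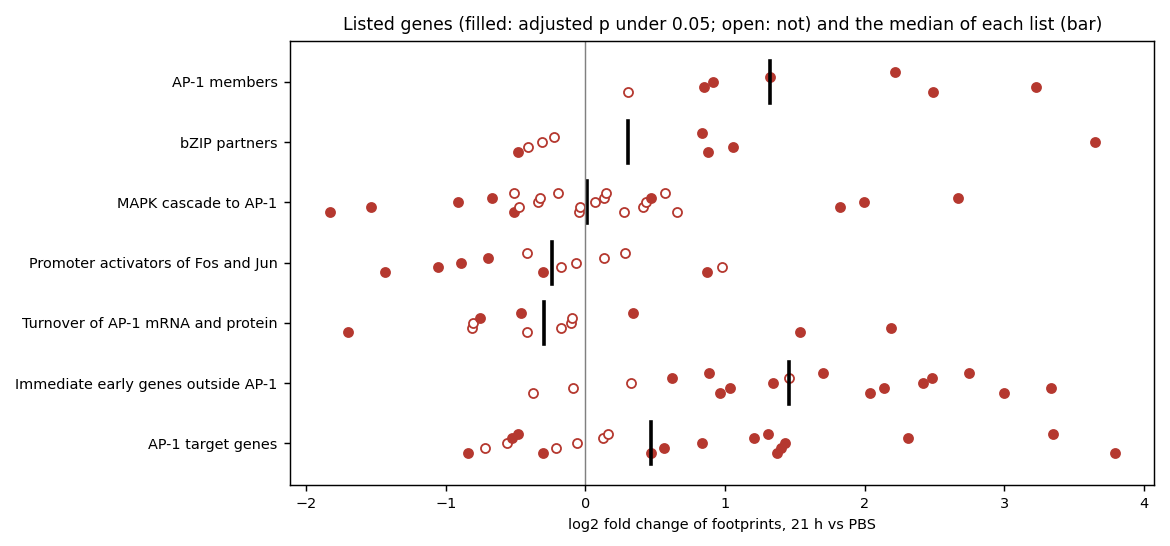
Log2 fold change of footprints at 21 h against PBS for each tested gene of the 7 lists, filled where the adjusted p was under 0.05, with the median of each list as a bar. The members (median 1.32) and the immediate early genes outside AP-1 (median 1.46) lie to the right of the cascade genes (median 0.01) and the promoter factors (median -0.24).

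Of 21 genes known as targets of AP-1 and tested in footprints at 21 h, 11 were called higher and 4 lower, with a median of 0.47, against 18.9% and 20.2% of all transcripts. In RNA 8 of 20 rose and 4 fell, against 11.6% and 12.2%. Ptgs2, the inducible cyclooxygenase, rose by 3.35 and its level went from 63.8 ± 1.25 to 672 ± 45.0 footprint RPKM (SD, n = 2 each; limma, BH-adjusted p = 9.4e-07). The cytokine Il6 went from 1.08 ± 1.05 to 19.4 ± 4.48 footprint RPKM (SD, n = 2 each; limma, BH-adjusted p = 0.00041), and its RNA was at 0 in all PBS and 6 h libraries. Ereg and Areg, ligands of the EGF receptor, rose by 2.31 and 1.43 (limma, BH-adjusted p = 8.0e-06 and 5.7e-05). Vegfa, a growth factor for blood vessels, gave -0.06 in both footprints and RNA (limma, BH-adjusted p = 0.723 and 0.818). At 6 h no target was called higher and 1 was called lower, against 1.05% and 0.991% of all transcripts. It was Cd44, named here after its value was seen, at -0.52 (limma, BH-adjusted p = 0.0284).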

How the data were processed

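Per the labels, reads were processed with cutadapt and STAR on GRCm39 (versions are not given in the sources used here). The authors deposited RPKM per library, without pooling, for 1 transcript per gene (coding sequence in footprints, full transcript in RNA-seq). Whether counting used strand is not given. RPKM multiplied by length gave whole multiples of 1 read for 100% of values (tolerance 0.01), hence the depth. The floors (3 reads) cover counting error only. The intervals come from the limma fits and, like the p-values of those fits, measure the spread between libraries.

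Within an assay, median-of-ratios factors scaled the RPKM, transcripts with a mean of at least 1 were kept, and limma 3.58.1 was fitted to log2(RPKM + 0.5) (R 4.3.3; eBayes with a trend, 3 groups in a single model; TE as the interaction of assay and treatment), checked on simulated data. Files were read with Python 3.11.15. Members, lists and tests were chosen with earlier results of these data known, which therefore are no independent support. Named genes are the members and, per list, up to 4 called genes with the largest change in footprints at 21 h, plus, for partners and targets, the 2 uncalled with the most RNA with PBS (1 target is not reported here). For Fos and Jun, the 3 nearest transcripts were named. Alternatives were another pseudocount, filter, scaling, variance prior or model, a replicate block, voom on recovered reads, and each library left out.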

Additional observations from a re-analysis of the deposited data

Results flagged for a closer look

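The change from PBS at 21 h exceeded that at 6 h by the test of the difference itself (limma, Benjamini-Hochberg-adjusted p under 0.05). In footprints it did so for Fos by 1.92, Fosb by 2.22, Jun by 1.84 and Junb by 1.04 on the log2 scale. In RNA it did so for Fos by 2.36, Jun by 2.62, Junb by 0.79 and Jund by 0.36. The RNA difference of Fosb, 2.77, also passed, but Fosb entered that test only through its 21 h libraries, so it supports nothing. Both changes were measured against the same PBS libraries, so exposure to Cis and time in culture cannot be told apart here. In each difference both 21 h libraries lay above both 6 h libraries. For TE no member differed between the times.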

How the results depend on the processing

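Of 997 refitted changes of members, 916 kept their direction and their side of the threshold, 42 no longer passed, 7 newly passed and 32 changed sign, each of the last around a main value that had not passed. The number of members called in footprints at 6 h, 2, fell to 0 with no filter, with no variance trend and with the replicate number as a block, and was 0 to 1 with a library left out. It was 3 with voom and with only the groups compared, where Jund also passed (limma, BH-adjusted p = 0.0232 and 0.0426). In RNA between 6 h and 21 h, 5 fell to 3 with no filter and with no variance trend, and to between 3 and 4 with a library left out. In RNA at 21 h, 7 became 4 to 6 with a library left out, the 4 without the first PBS library. It was 5 with no filter, where Fosl1 and Fosl2 did not pass (limma, BH-adjusted p = 0.0619 and 0.0626), and with no variance trend, where Fosl2 and Junb did not (limma, BH-adjusted p = 0.0596 and 0.0528). It was 6 with voom, without Fosl1 (limma, BH-adjusted p = 0.0751), with quantile normalization, without Fosl2 (limma, BH-adjusted p = 0.0525), and with the stricter filter, under which fewer members were tested. In TE at 21 h, voom called 1 member, Fosb, where limma called 0, but its RNA was at 0 in both PBS libraries and passed the minimum only through 21 h, so the call supports nothing. The count at 21 h in footprints was 5 to 7 over all alternatives. In reads in place of RPKM, the share of the Fos family was 32.0% (PBS) and 32.5% (6 h) of footprints, and of RNA 31.3% (PBS), 33.2% (6 h) and 35.3% (21 h). Reads, unlike RPKM, are not divided by length, and the Fosl2 transcript, at 6537 bases, is the longest of the 7. With PBS, Fosl2 was 26.1% and 24.2% of the RNA reads of the family, against 8.91% and 8.10% of its RPKM. The cause of the differences in calls was not tested.

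The 6 h footprint change of Fosb turned positive with RPKM as deposited (0.010), quantile normalization (0.094), only the groups compared (0.011) and voom (0.091). In TE, Fos at 6 h was -0.015 with a pseudocount of 0.1, Fosl2 at 6 h 0.034 with RPKM as deposited, and Jund between 6 h and 21 h 0.0085 with quantile normalization. With each library left out in turn, changes that had not passed ran to both sides of 0. In footprints at 6 h the ranges were -0.30 to 0.29 for Fosb and -0.0037 to 0.13 for Fosl2. In RNA they were -0.23 to 0.38 for Junb and -0.048 to 0.27 for Fosl2 at 6 h, and -0.087 to 0.21 for Fosl1 between 6 h and 21 h. In TE at 6 h they were -0.28 to 0.54 for Fos, -0.42 to 0.060 for Fosl1, -0.20 to 0.12 for Fosl2 and -0.095 to 0.52 for Junb. In TE at 21 h they were -0.71 to 0.10 for Fos, -0.11 to 0.37 for Fosl1 and -0.0019 to 0.42 for Jund, and between 6 h and 21 h -1.12 to 0.0028 for Fosb, -0.058 to 0.56 for Junb and -0.24 to 0.19 for Jund. TE calls over all transcripts between 6 h and 21 h, 55 higher and 39 lower, became 42 and 112 with RPKM as deposited.

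No pairing of the libraries by replicate number was seen, but weak correlations cannot exclude it, and the main TE fit took all libraries as independent. Deviations of same-numbered libraries correlated at -0.08 to 0.07, none above 0.1, and with the replicate number as a block 0 members were called in footprints at 6 h and 4 in RNA between 6 h and 21 h, the other counts being as before. Voom called 454 higher and 822 lower in footprints at 6 h, where limma called 109 and 103, and 1482 and 1525 in RNA at 21 h, where limma called 1094 and 1154. With 2 libraries per group and 7 to 9 RNA reads of Fos with PBS, changes of low members are imprecise.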
